A study of Homo sapiens with 18 samples.

Results

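The caveolin and cavin genes were followed through RAS-induced senescence and inhibition of N-myristoylation: the caveolins CAV1 and CAV2, the cavins CAVIN1, CAVIN2 and CAVIN3, and EHD2 and PACSIN2, whose proteins act at the neck of the same membrane pit. They were 7 of the 28266 gene rows of the count table, found by symbol, and all 7 were among the 14341 genes that passed the filter on low counts. The genes were picked with earlier results of these libraries known, and CAVIN2 was chosen by its fold changes with the inhibitors in senescent cells. Those fold changes of CAVIN2 are therefore given as a description, with no test.

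The libraries were made from poly(A) RNA of IMR90 ER:RAS cells, which are human lung fibroblasts into which a fusion of a RAS oncoprotein with the oestrogen receptor had been introduced by retroviral transfer. Cells received 4-hydroxytamoxifen (4OHT) at 100 nM, which activates the fusion and brings on oncogene-induced senescence, or DMSO alone, and they were kept for 7 days. They were then given IMP1088 at 300 nM, DDD86481 at 1.5 µM or DMSO for 3 days and collected at day 10. The 6 groups, which were control or senescent cells with DMSO, IMP1088 or DDD86481, held 3 libraries each. IMP1088 and DDD86481 are inhibitors of N-myristoyltransferases (NMTi), the enzymes that attach the fatty acid myristate to the N-terminal glycine of many proteins. The cells of every group, controls included, carried ER:RAS, the label gave the genotype as WT throughout, and all groups came from this single cell line.

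Library totals ran from 16143716 to 23189950 counts. The library of control DMSO replicate 3 stood apart, with 3.73% of the genes tested more than 2-fold from the mean of its group mates, against 0.941 to 2.78% in the other libraries, and the values of the 7 genes without it are given beside those with it where it enters. For other genes no fold change without that library is given. All 10 markers of lung fibroblasts were detected in every group. Levels are given in CPM, the reads on a gene brought to one fixed library size after TMM scaling. HRAS, whose reads cannot be told from those of the transgene, was higher in senescent than in control cells with DMSO (log2 fold change 0.85 ± 0.09, SE, adjusted p = 7.51e-08). CDKN1A, which encodes the cell-cycle inhibitor p21, was also higher (2.50 ± 0.11, adjusted p = 7.88e-14), and LMNB1, the lamin gene that is lost in senescence, was lower (−3.70 ± 0.29, adjusted p = 5.57e-10).

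Caveolae are flask-shaped pits of the plasma membrane that store membrane, buffer tension and gather signalling proteins, and they are dense in fibroblasts, endothelium, fat and muscle. Caveolin-1 inserts into the inner leaflet and forms the oligomers on which the pit is built, and caveolin-2 joins it in mixed oligomers. Cavin-1 coats the pit and is needed for it to form, while cavin-2 and cavin-3 join cavin-1 in the coat. The ATPase EHD2 holds the neck of the pit at the membrane, and PACSIN2, an F-BAR protein, helps to bend it.

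CAV2 and CAV1 lie side by side on the same strand of chromosome 7, at chr7:116499738-116508541 and chr7:116525009-116561185 in GRCh38.p14, with 16467 bases between them. CAVIN2 lies on the minus strand at chr2:191834310-191847088. The sequences of the 250 bases before the start of these 3 genes, from RefSeq on GRCh38.p14, are shown because CAV1 and CAV2 changed together with the inhibitors and apart in senescence, and because CAVIN2 had the lowest levels. Both strands were searched for 6 motifs, none of which overlaps another in these windows, and capitals mark the matches. The motif GGGCGG is the GC box that binds SP1. The motif TATAAA is the core of the TATA box. The motif CCAAT is bound by NF-Y in many promoters. The motif TGANTCA is the site of AP-1, the FOS and JUN dimer. The motif CACGTG is an E-box read by MYC and its relatives. The motif CATTCC is read by the TEAD factors, the partners of YAP.
CAV1, chr7:116524759-116525008, plus strand: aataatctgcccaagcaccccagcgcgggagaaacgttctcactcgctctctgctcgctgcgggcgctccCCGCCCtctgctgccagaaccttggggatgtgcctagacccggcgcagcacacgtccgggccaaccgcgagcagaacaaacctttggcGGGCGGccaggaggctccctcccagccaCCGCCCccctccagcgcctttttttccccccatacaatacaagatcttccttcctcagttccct
CAV2, chr7:116499488-116499737, plus strand: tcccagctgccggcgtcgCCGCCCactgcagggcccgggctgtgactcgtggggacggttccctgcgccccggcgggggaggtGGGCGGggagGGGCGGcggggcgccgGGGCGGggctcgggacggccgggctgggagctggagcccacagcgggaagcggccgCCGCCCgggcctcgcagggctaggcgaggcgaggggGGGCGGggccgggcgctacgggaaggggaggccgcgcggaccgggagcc
CAVIN2, chr2:191847089-191847338, minus strand: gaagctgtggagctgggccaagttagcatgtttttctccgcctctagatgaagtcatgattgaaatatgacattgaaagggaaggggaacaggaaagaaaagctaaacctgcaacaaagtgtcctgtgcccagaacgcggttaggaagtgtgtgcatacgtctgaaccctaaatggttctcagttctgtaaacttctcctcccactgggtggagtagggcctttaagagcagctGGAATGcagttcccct
The window of CAV1 held 3 GC boxes and that of CAV2 held 6, while that of CAVIN2 held no GC box and 1 TEAD site. The GC content was 63.6% for CAV1, 83.2% for CAV2 and 48% for CAVIN2. No TATA box, CCAAT box, AP-1 site or E-box was present in these 3 windows. Over the windows of all 27305 genes in the table, 42.3% held a GC box, 11.1% a TATA box, 33% a CCAAT box, 6.6% an AP-1 site, 6.49% an E-box and 11.9% a TEAD site. A match is a run of letters only. The windows of EHD2 and PACSIN2 held 1 GC box and 1 TEAD site, respectively, and CAVIN1 and CAVIN3 had no entry. The window of PACSIN2, chr22:42959900-42960149, lies inside the span of the gene, chr22:42869766-43015149, and not before its outermost start.

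CAV1 was lower in senescent than in control cells, and both inhibitors lowered it in either state. In control cells with DMSO the 3 libraries held 716, 715 and 810 CPM of CAV1. With IMP1088 they held 206, 200 and 259 CPM, and with DDD86481 231, 190.4 and 234.9 CPM. Every library of the inhibitor groups was below every DMSO library. In senescent cells with DMSO the values were 117, 112 and 104 CPM, below all 9 libraries of control cells. Senescent cells with IMP1088 held 31.3, 31.4 and 31.5 CPM and those with DDD86481 26.9, 32.2 and 34.2 CPM, the lowest of the series.

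The fold changes of CAV1 were large in every comparison. Senescent cells with DMSO had 6.74-fold less CAV1 than control cells (log2 fold change −2.75 ± 0.12, SE, adjusted p = 2.97e-14, edgeR quasi-likelihood test with Benjamini-Hochberg adjustment over all genes tested, as for every adjusted p here). In control cells CAV1 was 3.37-fold lower with IMP1088 (−1.75 ± 0.11, adjusted p = 1.47e-09) and 3.41-fold lower with DDD86481 (−1.77 ± 0.11, adjusted p = 1.22e-09). In senescent cells it was 3.53-fold lower with IMP1088 (−1.82 ± 0.12, adjusted p = 4.94e-10) and 3.56-fold lower with DDD86481 (−1.83 ± 0.12, adjusted p = 5.25e-10). Subtracting the inhibitor effect of control cells from that of senescent cells left −0.07 for IMP1088 (95% interval −0.40 to 0.26, adjusted p = 0.783) and −0.06 for DDD86481 (−0.39 to 0.27, adjusted p = 0.798), so no difference between the states was detected. Leaving out control DMSO replicate 3 gave −2.69 for senescence, −1.69 and −1.71 for the inhibitors in control cells, and −0.13 and −0.12 for the differences between the states.

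CAV2, whose protein depends on caveolin-1 to reach the surface, was lower with both inhibitors, while no change in senescence was detected. Its levels in control cells with DMSO were 100.3, 120.2 and 168.5 CPM, with replicate 3 the highest. Senescent cells with DMSO held 123, 123 and 113 CPM, within the range of the control libraries. The difference was −0.11 ± 0.14 on the log2 scale (95% interval −0.40 to 0.18, adjusted p = 0.485), and without control DMSO replicate 3 it was 0.12 (adjusted p = 0.342).

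With the inhibitors CAV2 fell to similar levels in both states. Control cells held 35.3, 44.6 and 44.98 CPM with IMP1088 and 39.0, 39.9 and 45.6 CPM with DDD86481. Senescent cells held 41.0, 43.9 and 42.8 CPM with IMP1088 and 47.9, 52.7 and 42.7 CPM with DDD86481. No inhibitor library overlapped the DMSO libraries of its state. In control cells CAV2 was 3.11-fold lower with IMP1088 (−1.64 ± 0.14, adjusted p = 6.00e-08) and 3.12-fold lower with DDD86481 (−1.64 ± 0.14, adjusted p = 6.43e-08). In senescent cells it was 2.82-fold lower with IMP1088 (−1.49 ± 0.15, adjusted p = 9.19e-08) and 2.51-fold lower with DDD86481 (−1.33 ± 0.14, adjusted p = 4.22e-07). The difference between the states did not pass for IMP1088 (0.14, 95% interval −0.27 to 0.56, adjusted p = 0.626) or DDD86481 (0.32, −0.10 to 0.74, adjusted p = 0.241). For DDD86481 it passed without control DMSO replicate 1 (0.47, adjusted p = 0.0375). Without control DMSO replicate 3 the differences between the states were −0.088 and 0.084, and CAV2 in control cells changed by −1.41 with each inhibitor.

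**Figure D1:**
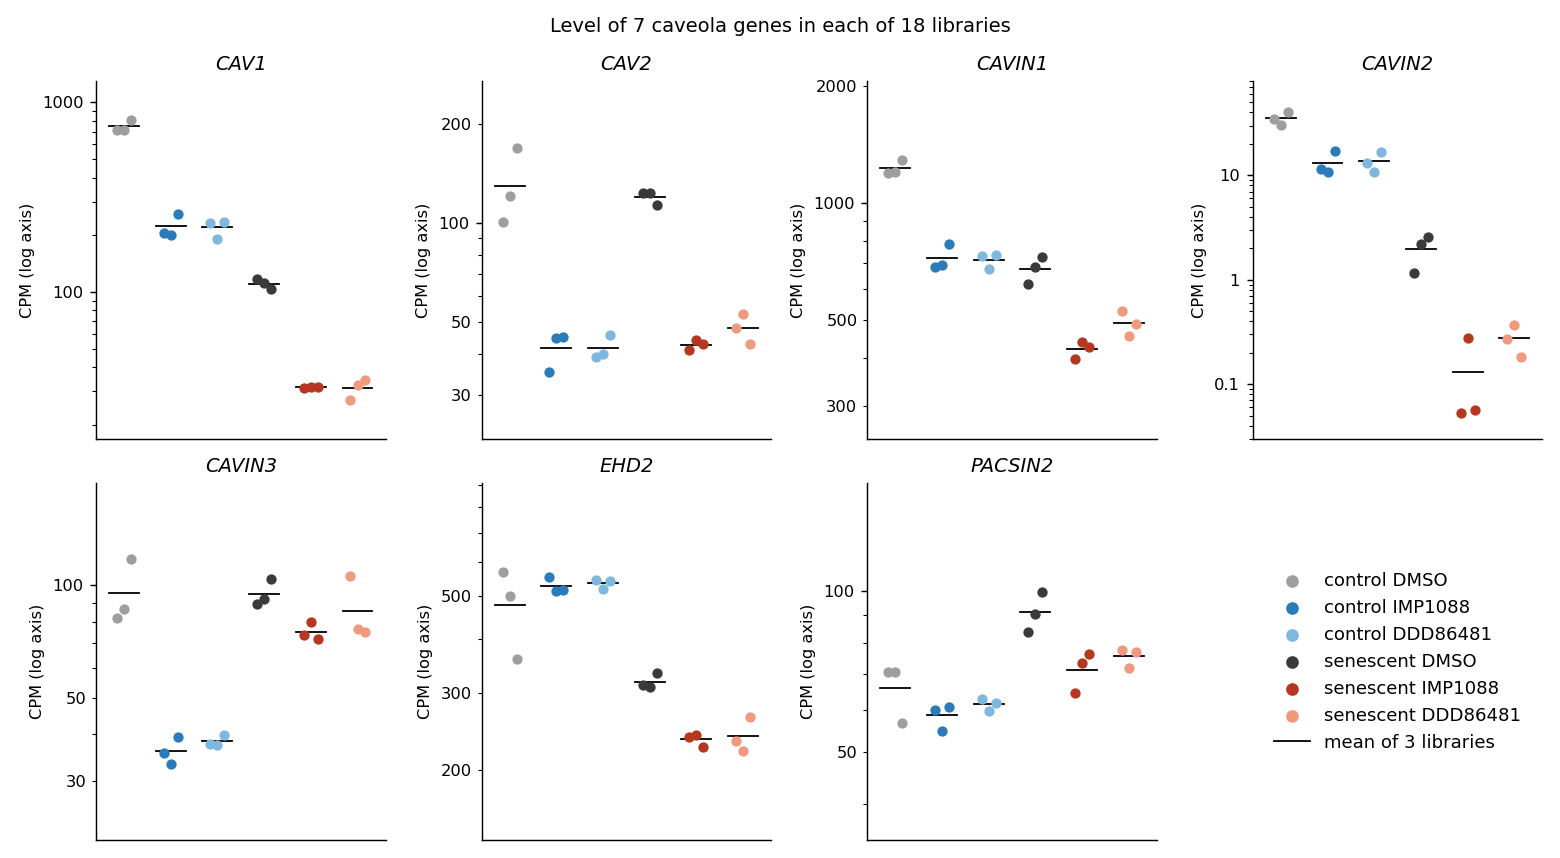
Level of each of the 7 genes in CPM (TMM scaled, log axis) in each of the 18 libraries, coloured by group, with the mean of 3 libraries as a line. CAV1 steps down from 747 CPM in control cells with DMSO to 31.1 CPM in senescent cells with DDD86481, while the 3 CAV2 libraries of senescent DMSO cells lie within the range of the control DMSO libraries.

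The balance of the caveolins shifted with senescence. Per kilobase of exon, the log2 ratio of CAV2 to CAV1 was −3.60, −3.34 and −3.03 in control cells with DMSO and −0.70, −0.62 and −0.64 in senescent cells with DMSO. The means were −3.32 ± 0.29 and −0.65 ± 0.04 (SD, n = 3), and the groups did not overlap. This ratio does not depend on library scaling, and the gap between groups does not depend on the exon lengths used, although the ratio itself does: without any length correction the means were −2.56 and 0.11. With IMP1088 and DDD86481 the means were −3.18 ± 0.21 and −3.16 ± 0.16 in control cells, which overlapped the DMSO values. In senescent cells they were −0.33 ± 0.04 and −0.14 ± 0.27, above the senescent DMSO libraries in every library. With 3 libraries against 3 an exact permutation test cannot give p below 0.1, so none was run.

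The genes on either side of the caveolins were read for comparison, because CAV2 lies between genes that were lower in senescence. TES, which encodes a focal adhesion protein, is the neighbour of CAV2 at 240954 bases, and MET, the receptor of hepatocyte growth factor, is that of CAV1 at 111010 bases. In senescence with DMSO, the log2 fold change was −2.91 ± 0.12 for TES (adjusted p = 2.58e-14) and −1.88 ± 0.17 for MET (adjusted p = 6.48e-09). With IMP1088 in senescent cells MET was higher by 0.84 ± 0.18 (adjusted p = 0.000645) and TES changed by 0.29 ± 0.13 (adjusted p = 0.072), whereas both caveolins were lower. With IMP1088 in control cells all 4 were lower, with −0.78 ± 0.16 for MET (adjusted p = 0.001) and −0.38 ± 0.11 for TES (adjusted p = 0.00939).

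Marker genes of the fibroblasts and of other caveola-rich cells moved as well. The 10 fibroblast markers summed to 24830 to 36280 CPM in control cells, 16650 to 17060 CPM in senescent cells with DMSO and 11560 to 12350 CPM in senescent cells with the inhibitors. Of 5 muscle markers, MYOD1 and MYOG, which define skeletal muscle, were at 0 in every library. The summed level of the list was 359 to 443 CPM in control cells with DMSO and 63.5 to 83.4 CPM with the inhibitors. In senescent cells it was 38.2 to 48.02 CPM with DMSO and 2.40 to 4.09 CPM with the inhibitors. Most of it was ACTG2, a smooth muscle actin, at 376 ± 44.4 CPM in control cells with DMSO. The 6 endothelial markers summed to 31.9 to 55.4 CPM in control cells with DMSO, 34.6 to 51.8 CPM in control cells with the inhibitors, 35.9 to 44.8 CPM in senescent cells with DMSO and 14.7 to 25.8 CPM in senescent cells with the inhibitors. CDH5, the endothelial cadherin, was at 0 in control cells with either inhibitor and at 1.77 ± 0.26 CPM in senescent cells with DMSO. The members of this list moved in opposite directions in senescence with DMSO. TEK was lower, at 42.0 ± 11.5 CPM in control and 11.2 ± 2.18 CPM in senescent cells. From control to senescent cells, mean CPM was higher for CLDN5 (0.10 to 19.5), VWF (1.12 to 5.82), PECAM1 (0.21 to 2.77) and CDH5 (0.013 to 1.77). KDR was low in both (0.040 and 0.18 CPM). The adipocyte, epithelial and leukocyte lists stayed at or below 1.49 CPM in sum. The part of these genes in the caveolin results was not tested, and in bulk RNA fewer cells of a type cannot be told apart from less RNA per cell.

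CAVIN1, the coat protein needed for caveolae, was the most abundant of the 7 genes per kilobase of exon in every group. Its levels in control cells with DMSO were 1196, 1201 and 1285 CPM, against 620, 683 and 727 CPM in senescent cells with DMSO. With IMP1088 they were 684.5, 693 and 783 CPM in control cells and 396, 440 and 425 CPM in senescent cells. With DDD86481 they were 728, 675 and 735 CPM in control cells and 528, 454 and 489 CPM in senescent cells. Every inhibitor library was below every DMSO library of its state, and every senescent DMSO library was below every control DMSO library.

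The changes of CAVIN1 passed the test in each comparison, and with the inhibitors its fold changes were smaller than those of CAV1 and CAV2. Senescence lowered it 1.81-fold (−0.86 ± 0.09, adjusted p = 4.29e-08). In control cells it was 1.71-fold lower with IMP1088 (−0.77 ± 0.09, adjusted p = 2.29e-06) and 1.72-fold lower with DDD86481 (−0.78 ± 0.09, adjusted p = 1.88e-06). In senescent cells it was 1.61-fold lower with IMP1088 (−0.69 ± 0.09, adjusted p = 3.88e-06) and 1.38-fold lower with DDD86481 (−0.47 ± 0.09, adjusted p = 0.000285). The difference between the states was 0.08 for IMP1088 (95% interval −0.18 to 0.35, adjusted p = 0.661) and 0.32 for DDD86481 (0.06 to 0.58, adjusted p = 0.0608). For DDD86481 it passed with the DESeq2 Wald test (0.31, adjusted p = 0.0255), and also without control DMSO replicate 1 (0.34) or 2 (0.37), control DDD86481 replicate 1 (0.37) or 3 (0.38), senescent DMSO replicate 3 (0.37) or senescent DDD86481 replicate 2 (0.37), with adjusted p between 0.043 and 0.0473. Without control DMSO replicate 3 CAVIN1 changed by −0.83 in senescence and by −0.74 with IMP1088 and −0.75 with DDD86481 in control cells, and the differences between the states were 0.049 and 0.29.

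**Figure D2:**
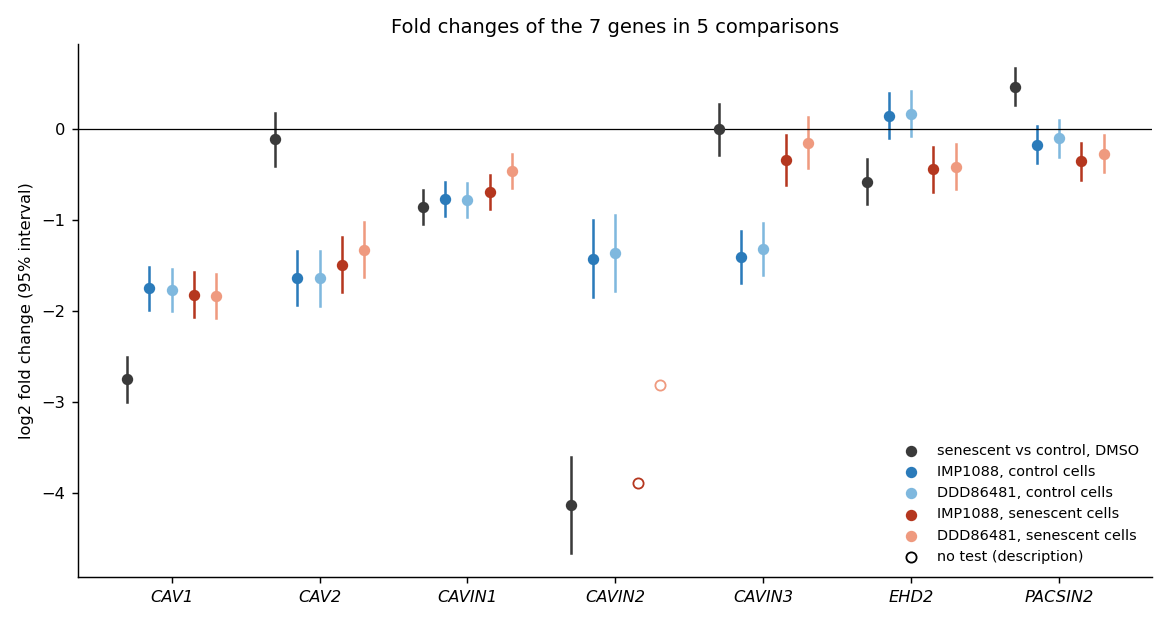
Log2 fold changes of the 7 genes in 5 comparisons, with 95% intervals from the fit of 18 libraries for the filled points, while open points are CAVIN2 with the inhibitors in senescent cells, which was not tested. The points of CAV1, CAVIN1 and CAVIN2 lie below 0 in all 5 comparisons. The interval of CAV2 lies below 0 in the 4 inhibitor comparisons and spans 0 in senescence.

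CAVIN2 was the scarcest member of the group and was close to the limit of detection in senescent cells given an inhibitor. Control cells with DMSO held 34.6, 30.7 and 40.2 CPM of this cavin, which is known for shaping caveolae in endothelium and lung. Senescent cells with DMSO held 1.17, 2.18 and 2.58 CPM, from 19, 35 and 47 counts. The groups were far apart, 17.6-fold on the fitted scale (−4.13 ± 0.25, adjusted p = 9.69e-12). The ratio of the summed counts, 2427 against 101 at these library sizes, was 17.4 (95% counting interval 14.2 to 21.4), and without control DMSO replicate 3 the fitted log2 fold change was −4.03. Exon bases of CAVIN2 shared with the antisense gene CAVIN2-AS1 came to 7.79%, and although the study's methods name a directional kit and a stranded alignment, the strand setting of the counting itself was not stated, so reads of the pair may be mixed.

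The inhibitors lowered CAVIN2 in control cells. The libraries held 11.5, 10.8 and 17.0 CPM with IMP1088 and 13.2, 10.9 and 16.9 CPM with DDD86481, all below the DMSO libraries. The fall was 2.69-fold with IMP1088 (−1.43 ± 0.20, adjusted p = 2.02e-05) and 2.57-fold with DDD86481 (−1.36 ± 0.20, adjusted p = 3.34e-05), or −1.32 and −1.25 on the log2 scale without control DMSO replicate 3. In senescent cells 1, 5 and 1 counts remained with IMP1088, so that 2 of the 3 libraries were below the floor of 3 counts, and 5, 7 and 3 counts remained with DDD86481. These values chose the gene and are given without a test. The summed counts were 7 with IMP1088 and 15 with DDD86481, against 101 with DMSO. At these library sizes they were 15.7-fold and 7.17-fold lower than with DMSO, respectively. The fitted log2 fold changes were −3.90 and −2.81, and without senescent IMP1088 replicate 2, which held 5 of the 7 counts, the first was −5.04. The effect of control cells subtracted from that of senescent cells was −2.47 for IMP1088 and −1.45 for DDD86481. The first was −3.62 without senescent IMP1088 replicate 2, and without control DMSO replicate 3 they were −2.58 and −1.56.

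No change of CAVIN3 in senescence was detected, unlike the lower levels of CAVIN1 and CAVIN2 given above. Control cells with DMSO held 81.9, 86.3 and 118 CPM and senescent cells with DMSO 89.1, 92.2 and 104 CPM, within the range of the controls. The difference was −0.003 ± 0.13 on the log2 scale (95% interval −0.28 to 0.27, adjusted p = 0.986), and it was 0.18 (adjusted p = 0.187) without control DMSO replicate 3, the highest library. In control cells the levels fell to 35.7, 33.2 and 39.2 CPM with IMP1088 and 37.7, 37.4 and 39.8 CPM with DDD86481. In senescent cells they were 73.7, 79.7 and 71.9 CPM with IMP1088 and 106, 76.3 and 74.9 CPM with DDD86481. Only DDD86481 replicate 1 of these 6 libraries reached the levels of the senescent DMSO libraries.

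The effect of the inhibitors on CAVIN3 differed between the states. In control cells it was 2.65-fold lower with IMP1088 (−1.40 ± 0.14, adjusted p = 2.27e-07) and 2.49-fold lower with DDD86481 (−1.31 ± 0.14, adjusted p = 5.89e-07), or −1.22 and −1.14 without control DMSO replicate 3. In senescent cells it was 1.27-fold lower with IMP1088 (−0.34 ± 0.13, adjusted p = 0.0454), and leaving out any 1 of the 6 libraries moved the adjusted p to between 0.0536 and 0.164 (log2 fold change −0.38 to −0.27). With DDD86481 the difference was −0.15 ± 0.13 (adjusted p = 0.386), and without senescent DDD86481 replicate 1 it was −0.33 (adjusted p = 0.0492). The effect of control cells subtracted from that of senescent cells was 1.06 ± 0.19 for IMP1088 (adjusted p = 0.000479) and 1.16 ± 0.19 for DDD86481 (adjusted p = 0.000196), and 0.88 and 0.98 without control DMSO replicate 3. Exon bases shared with a gene on the opposite strand, ENSG00000282556, were 36.7% of those of CAVIN3, so part of its counts may belong to that gene if strand was not used in counting.

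The make-up of the cavins followed from these levels. Per kilobase of exon, CAVIN1 was 82.6 ± 2.11% of the sum of the 3 cavins in control cells with DMSO and 75.5 ± 0.60% in senescent cells with DMSO. CAVIN3 was 14.6 ± 1.97% and 24.3 ± 0.63%, respectively, and CAVIN2 was 2.76 ± 0.23% and 0.25 ± 0.08%. With IMP1088 the CAVIN3 share was 10.1 ± 0.38% in control cells and 29.1 ± 1.02% in senescent cells, and with DDD86481 it was 10.8 ± 0.33% and 28.4 ± 2.80%. The share was lower with the inhibitors in control cells and higher in senescent cells, with no overlap with the DMSO libraries in either state.

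**Figure D3:**
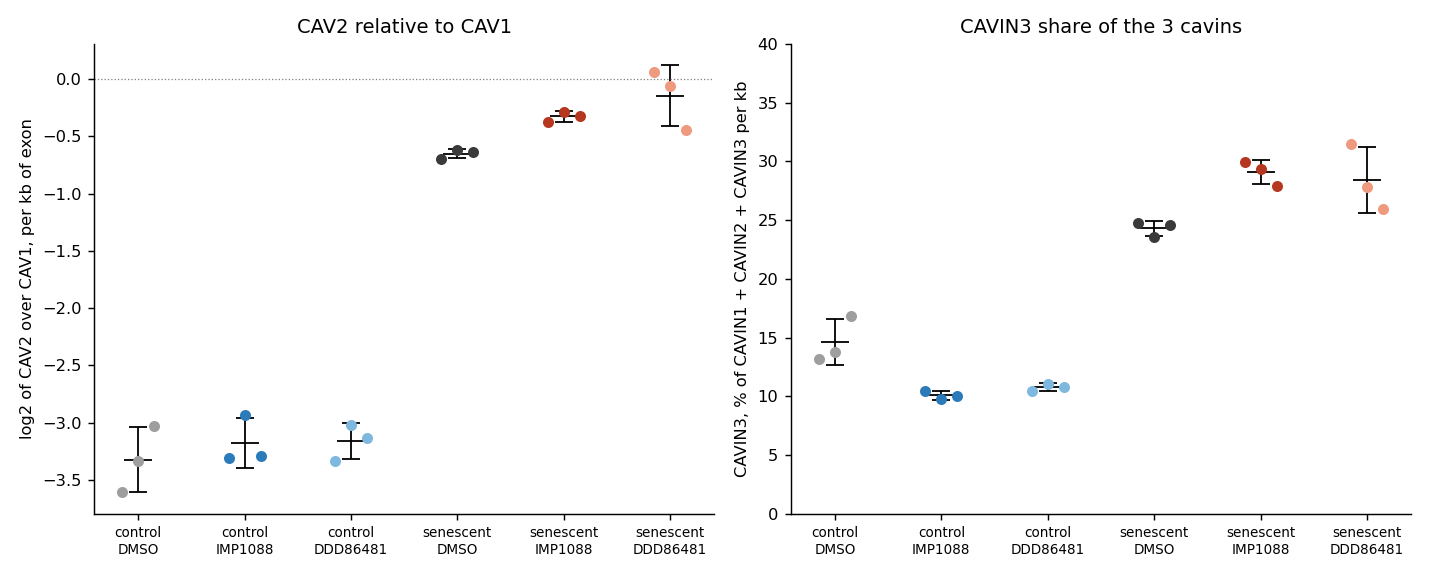
Left, log2 ratio of CAV2 to CAV1 per kilobase of exon and, right, percent share of CAVIN3 in the sum of the 3 cavins per kilobase, with libraries as points and the mean ± SD of 3 as bars. The ratio lies between −3.60 and −2.93 in control cells and between −0.70 and 0.06 in senescent cells, and the CAVIN3 share between 9.74 and 16.9% and between 23.6 and 31.5%.

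EHD2, the ATPase of the caveolar neck, was lower in senescence and changed with the inhibitors in senescent cells. Control cells with DMSO held 569, 502 and 359 CPM, with replicate 3 far below its mates, and senescent cells with DMSO 313, 311 and 334 CPM. The fold change was −0.58 ± 0.12 (adjusted p = 0.00021), and −0.75 without control DMSO replicate 3. Control cells held 555, 514 and 518 CPM with IMP1088 and 546, 521 and 543 CPM with DDD86481, which overlapped the DMSO libraries. Senescent cells held 238, 241 and 226 CPM with IMP1088 and 234, 221 and 264 CPM with DDD86481, all below the DMSO libraries.

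In senescent cells EHD2 was 1.36-fold lower with IMP1088 (−0.44 ± 0.12, adjusted p = 0.00474) and 1.33-fold lower with DDD86481 (−0.41 ± 0.12, adjusted p = 0.00778). In control cells the changes were 0.15 ± 0.12 (adjusted p = 0.346) and 0.17 ± 0.12 (adjusted p = 0.269). Both values depended on the control DMSO libraries. Without replicate 1 they were 0.30 (adjusted p = 0.0403) and 0.32 (adjusted p = 0.0272), and without replicate 3 they were −0.018 (adjusted p = 0.904) and 0.0023 (adjusted p = 0.991). The difference between the states was −0.59 ± 0.17 for IMP1088 (adjusted p = 0.0135) and −0.58 ± 0.17 for DDD86481 (adjusted p = 0.0131). It was −0.42 for both without control DMSO replicate 3, and for IMP1088 it was −0.52 (adjusted p = 0.0514) without control IMP1088 replicate 1. In a fit of only the groups compared the value for DDD86481 was −0.54 (adjusted p = 0.0573).

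PACSIN2, the F-BAR protein that bends the neck, was the only 1 of the 7 genes that was higher in senescence. Control cells with DMSO held 70.5, 70.4 and 56.6 CPM and senescent cells with DMSO 83.6, 90.3 and 99.2 CPM, without overlap. The change was 0.47 ± 0.10 (adjusted p = 0.000267), and 0.37 without control DMSO replicate 3. Control cells held 54.8 to 60.8 CPM with IMP1088 and 59.5 to 62.8 CPM with DDD86481, within the range of the DMSO libraries or just below it. The change in control cells was −0.17 ± 0.10 with IMP1088 (adjusted p = 0.187), or −0.27 (adjusted p = 0.0303) without control DMSO replicate 3, and −0.10 ± 0.10 with DDD86481 (adjusted p = 0.433), or −0.20 (adjusted p = 0.105) without that library. The differences between the states were −0.18 for IMP1088 (adjusted p = 0.342) and −0.17 for DDD86481 (adjusted p = 0.367), or −0.087 and −0.073 without it.

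In senescent cells PACSIN2 held 64.6, 73.2 and 76.0 CPM with IMP1088 and 77.4, 71.8 and 76.9 CPM with DDD86481, all below the DMSO libraries. The change was −0.35 ± 0.10 with IMP1088 (adjusted p = 0.00569) and −0.27 ± 0.10 with DDD86481 (adjusted p = 0.0289). The second was lost without senescent DMSO replicate 2 (−0.28, adjusted p = 0.0584) or 3 (−0.21, adjusted p = 0.136) and without senescent DDD86481 replicate 2 (−0.24, adjusted p = 0.0996), and in a fit of only the groups compared (−0.24, adjusted p = 0.0584). PACSIN2 shares 3.4% of its exon bases with ARFGAP3 on the same strand.

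**Figure D4:**
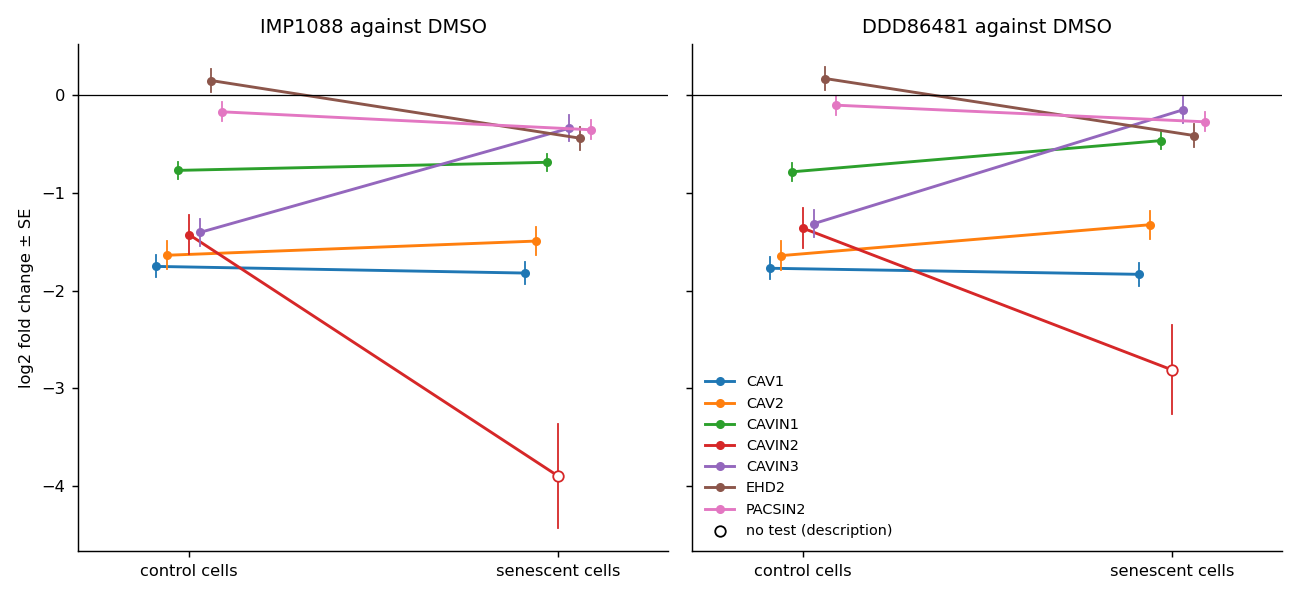
Log2 fold change ± SE of each gene with IMP1088 (left) and DDD86481 (right) against DMSO, in control and in senescent cells, joined by lines, with open points for CAVIN2 in senescent cells, which was not tested. The SE bars of the open points come from the fit and are not a test. The lines of CAV1 are nearly flat, from −1.75 to −1.82 with IMP1088, while that of CAVIN3 rises from −1.40 to −0.34 and that of EHD2 falls from 0.15 to −0.44.

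Counted together, 4 of the 7 genes fell and 1 rose in senescence with DMSO, where 36% of all genes tested were called lower and 32.5% higher. Their median log2 fold change was −0.58, against −0.05 over all genes. In control cells 5 of the 7 fell and none rose with either inhibitor. Over all genes 17.4% were called lower and 16.3% higher with IMP1088, and 18.7% lower and 17.8% higher with DDD86481. The median of the 7 was −1.40 with IMP1088 and −1.31 with DDD86481, against −0.0011 and 0 over all genes. In senescent cells 6 of the 6 genes tested fell with IMP1088 and 5 of 6 with DDD86481. The call of CAVIN3 with IMP1088 was lost whichever single library of these groups was left out. That of PACSIN2 with DDD86481 was lost without some single libraries. The shares of all genes called were 23.9% lower and 20.6% higher with IMP1088, and 23.1% lower and 20.1% higher with DDD86481. The medians of the 6 were −0.56 and −0.44, against −0.04 over all genes for both. They leave out CAVIN2, which the medians of the 7 include, so medians of the 2 states cover different sets. The inhibitor comparisons of a state share their DMSO libraries, and the senescence comparison shares both sets, so that they are not independent of each other. The effects in the 2 states differed for 2 of 6 genes with each inhibitor, where 26.2% of all genes were called for IMP1088 and 30.3% for DDD86481.

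No difference between the inhibitors, which were given at different doses, passed the test for the members tested. IMP1088 against DDD86481 gave 0 calls among the 14341 genes in senescent cells (0%) and in control cells (0%) by edgeR, and 0 by DESeq2. At an unadjusted p under 0.05 there were 570 and 141 genes, both fewer than that threshold passes on average by chance among 14341 tests. Same-numbered libraries were taken as paired here, and with the replicate block in a fit of only these groups 13 genes were called in senescent cells and 0 in control cells, with 0 of the members tested among them. In control cells the differences of the 7 genes lay between −0.09 and 0.02 on the log2 scale, and the widest 95% interval was that of CAVIN2 (−0.50 to 0.37). In senescent cells that of CAV1 was 0.01 (−0.23 to 0.26) and that of CAV2 −0.17 (−0.47 to 0.13). That of CAVIN1 was −0.22 (−0.41 to −0.04, adjusted p = 1), and its libraries did not overlap, with all 3 lower with IMP1088. For CAVIN2 the summed counts were 7 with IMP1088 and 15 with DDD86481, a ratio of 2.18 with a counting interval of 0.837 to 6.32.

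The order of the 7 genes by level per kilobase of exon changed mainly through CAV1. In control cells with DMSO the order was CAVIN1 (344 CPM per kilobase), CAV1 (193), EHD2 (124), CAVIN3 (61.2), CAV2 (19.7), PACSIN2 (14.4) and CAVIN2 (11.5). The ranges of CAV2 and PACSIN2 overlapped, as did those of PACSIN2 and CAVIN2. In senescent cells with DMSO it was CAVIN1 (190), EHD2 (83.0), CAVIN3 (61.0), CAV1 (28.7), PACSIN2 (20.0), CAV2 (18.2) and CAVIN2 (0.648), and the ranges of PACSIN2 and CAV2 overlapped. CAV1 thus went from rank 2 to rank 4, and in senescent cells with either inhibitor it ranked 5 of 7, at 8.11 CPM per kilobase with IMP1088 and 8.04 with DDD86481, below PACSIN2, and with DDD86481 its range overlapped that of CAV2. CAVIN2 was last in all 6 groups. The place of CAV1 above CAV2 with the inhibitors in senescent cells depended on the exon lengths used. With IMP1088 the mean log2 ratio of CAV2 to CAV1 was −0.33 with these lengths. It was 0.17 with the length of 1 canonical transcript and 0.44 without length. With DDD86481 the means were −0.14, 0.36 and 0.62, respectively.

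Genes with the most similar pattern were found from the mean log2 CPM of the 6 groups, after centring each gene on its own mean, as the smallest root mean square difference from the member. For CAV1 they were TNFSF4 (0.15), MAOB (0.18) and CNN1 (0.19). For CAV2 they were EVA1A (0.15), F3 (0.19) and MAP3K7CL (0.19). For CAVIN1 they were SKA2 (0.03), PTMS (0.04) and CCDC85B (0.07). CAVIN2 had no close match, with MRVI1 (0.35), GBP1 (0.39) and PDE5A (0.44) the nearest. SELPLG (0.07), NOG (0.09) and MYL9 (0.09) were nearest to CAVIN3, KIAA0513, PHKA2 and CLSTN3 (0.04 each) to EHD2, and CYTH1, PCSK7 and NADK (0.03 each) to PACSIN2. The pattern is described over 6 group means only.

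Of 7 paralogues of these genes 5 were tested, since CAV3, the muscle caveolin, and PACSIN1 did not pass the filter on low counts. In senescence with DMSO EHD1 (1.11 ± 0.10, adjusted p = 4.05e-09) and EHD4 (0.98 ± 0.09, adjusted p = 7.50e-09), which act at endosomes, were higher. PACSIN3 was lower (−0.81 ± 0.18, adjusted p = 0.000634), while EHD3 (0.23 ± 0.12, adjusted p = 0.107) and CAVIN4, the muscle cavin (0.13 ± 0.26, adjusted p = 0.686), did not pass. Over all genes 32.5% were called higher and 36% lower in this comparison. With IMP1088 in senescent cells 1 of the 5 rose, EHD1 (0.36 ± 0.10, adjusted p = 0.00528), and 2 fell, PACSIN3 (−0.60 ± 0.19, adjusted p = 0.0153) and CAVIN4 (−0.80 ± 0.29, adjusted p = 0.0297). With DDD86481 1 rose and 1 fell. Among all genes, 20.6% passed as higher and 23.9% as lower for IMP1088, against 20.1% and 23.1% for DDD86481. In control cells 0 rose and 3 fell with IMP1088, and 1 rose and 2 fell with DDD86481, where 16.3% and 17.8% of all genes were called higher and 17.4% and 18.7% lower.

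A list of 8 genes held partners of caveolae together with FLOT1, FLOT2 and STOM, whose proteins form membrane domains apart from caveolae. Of the 8, 3 rose and 4 fell in senescence with DMSO, with a median of −0.16. Over all genes 32.5% were called higher and 36% lower. STOM, which encodes the membrane protein stomatin, changed by −1.87 ± 0.09 (adjusted p = 3.18e-13), and ROR1, a receptor that scaffolds caveolin-1 and cavin-1, by −3.72 ± 0.19 (adjusted p = 3.55e-13). With each inhibitor in senescent cells 6 of the 8 fell and none rose, with medians of −0.74 for IMP1088 and −0.64 for DDD86481, where 23.9% and 23.1% of all genes were called lower. FLOT2, a flotillin of the inner leaflet, changed by −0.77 ± 0.09 (adjusted p = 9.17e-07) and −0.72 ± 0.09 (adjusted p = 2.06e-06), and STOM by −0.79 ± 0.09 (adjusted p = 1.02e-06) and −0.78 ± 0.09 (adjusted p = 1.32e-06). In control cells 3 of the 8 fell with IMP1088 and 2 with DDD86481, and none rose, where 17.4% and 18.7% of all genes were called lower. FLOT1 changed there by −0.56 ± 0.10 (adjusted p = 0.000155) and −0.58 ± 0.10 (adjusted p = 0.000113), and FLOT2 by −0.50 ± 0.09 (adjusted p = 0.000243) and −0.52 ± 0.09 (adjusted p = 0.000143).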

How the data were processed

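Raw counts of reads for each gene symbol in the 18 libraries were taken from the 1 table that the authors deposited, and groups came from the labels alone. The study's methods describe a directional kit and, for human reads, TopHat with a first-strand setting, hg19 and Ensembl annotation, and its software list holds HTSeq, whereas the submitters' processing notes list DRAGEN, STAR 2.7.8a, DESeq2 1.32.0 and hg38. Which of these made the table, and with which strand setting reads were counted, is not stated, so counts of overlapping genes are uncertain. Columns of DDD86481 libraries carry the name PCLX001, and the labels tie both names to 1 sample. Positions and promoter windows came from RefSeq (GRCh38.p14), and exon lengths and overlaps from GENCODE lifted to GRCh37.

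filterByExpr in edgeR 4.0.16 kept 14341 genes, which held 99.962% of the counts. After TMM scaling, a single fit of all 18 libraries with 6 group means gave each comparison by the quasi-likelihood F test of edgeR, with Benjamini-Hochberg adjustment over all genes tested and a threshold of 0.05. The SE is the absolute log2 fold change divided by the square root of F. The code was tested on simulated data. Library totals ran from 16143716 to 23189950 counts, and the floor of 3 counts stood at 0.121 to 0.187 CPM. Reads had no molecular identifiers, so the floors and the counting intervals of the summed CAVIN2 counts cover counting error only. The intervals of the log2 fold changes and of their differences come from the fit of all 18 libraries. They also include the spread between libraries. Levels are mean ± SD of 3 libraries. The labels do not say whether replicates came from separate cultures. For a heatmap of the same cells and treatments, the study's legend gives n = 3 and counts independent experiments. The p-values measure the spread between these libraries.

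The 7 genes, the context lists (paralogues, caveola partners with flotillins and stomatin, and clathrin endocytosis) and the marker lists (fibroblast, endothelial, muscle, adipocyte, epithelial and leukocyte) were chosen with earlier results of these data known. The text names the 7 genes, the 3 genes nearest to each in pattern, the paralogues tested, and in the other lists the 2 genes with the lowest adjusted p in a comparison described, with HRAS, CDKN1A and LMNB1 as checks of the labels. The neighbours of the caveolins, ACTG2 and the endothelial markers named were added after their values were seen. Alternatives were DESeq2 size factors, upper quartile scaling, no filter, the DESeq2 1.42.0 Wald test, a fit of only the groups compared, the replicate number as a block, and leaving out each library. Same-numbered libraries deviated together for IMP1088 in control cells and for IMP1088 against DDD86481 in both states, with r from 0.101 to 0.394. In the other comparisons r was also positive, from 0.0067 to 0.170. These ranges overlap, so r does not settle which libraries were paired. The numbers were taken to pair only the libraries of the comparisons named first, and the main fit held no replicate block for any comparison.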

Additional observations from a re-analysis of the deposited data

Results flagged for a closer look

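The effect of the inhibitors on CAVIN3 and on EHD2 differed between senescent and control cells by the interaction term of the edgeR fit. For CAVIN3 the effect of control cells subtracted from that of senescent cells was 1.06 for IMP1088 and 1.16 for DDD86481 on the log2 scale. For EHD2 it was −0.59 for IMP1088 and −0.58 for DDD86481. The EHD2 call was lost for IMP1088 without control IMP1088 replicate 1 (adjusted p = 0.0514). For DDD86481 it was lost in a fit of only the groups compared (adjusted p = 0.0573). Each pair of values shares its DMSO libraries between the inhibitors. No other gene of the 7 was past the threshold, and CAVIN2 was not tested.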

How the results depend on the processing

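Of 901 recomputed values of single genes, 839 were counted as the same. A tested value had to keep its direction and its side of the threshold. An untested value of CAVIN2 had to stay within the SE of its main log2 fold change. The direction of CAVIN3 in senescence, whose value was near 0, turned with DESeq2 size factors (0.030), no filter (0.027), the DESeq2 Wald test (0.0298), only the groups compared (0.0167), the replicate block (0.0013) and the replicate block in only those groups (0.032). The cause was not tested. A fit of only the groups compared used fewer libraries and called 2716 genes for IMP1088 and 2842 for DDD86481 in control cells, against 4829 and 5242, and 3277 for DDD86481 with the replicate block. With either fit 1 gene of the 7 was called for the difference of the DDD86481 effect between states, against 2. IMP1088 against DDD86481 in senescent cells gave 1 call among all genes with no filter, against 0. With the replicate block in those groups it gave 13, where the numbers were taken to pair the libraries. The replicate block in the fit of 18 libraries brought CAVIN1 past the threshold in the DDD86481 difference between states (0.32, adjusted p = 0.0473), as did upper quartile scaling (0.37, adjusted p = 0.0286). A fit of only the groups compared lost the calls of PACSIN2 with DDD86481 in senescent cells (adjusted p = 0.0584) and of EHD2 in the DDD86481 difference (adjusted p = 0.0573), and with the replicate block added they stayed lost (adjusted p = 0.0688 and 0.0742). Upper quartile scaling moved the median of all genes in senescence by −0.15 on the log2 scale. Leaving out 1 library gave ranges that crossed 0 in senescence for CAV2 (−0.27 to 0.12) and CAVIN3 (−0.10 to 0.18), and for EHD2 with IMP1088 in control cells (−0.018 to 0.30). In the difference between states it did so with IMP1088 for CAV1 (−0.13 to 0.086) and CAV2 (−0.088 to 0.30), and with DDD86481 for CAV1 (−0.13 to 0.032). Calls among the 7 ran from 1 to 2 with IMP1088 and from 2 to 4 with DDD86481. IMP1088 against DDD86481 crossed 0 in senescent cells for CAV1 (−0.081 to 0.085) and EHD2 (−0.083 to 0.049), and in control cells for CAV1 (−0.098 to 0.088), CAV2 (−0.049 to 0.11), CAVIN1 (−0.040 to 0.052), CAVIN2 (−0.29 to 0.12) and EHD2 (−0.054 to 0.0041). Shares of the cavins moved with the exon lengths used: that of CAVIN3 in control cells with DMSO was 6.98% without length and 20.6% with the length of 1 canonical transcript, an alternative chosen after seeing the data. The 7 counts of CAVIN2 in senescent cells with IMP1088 limit its fold change.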

Other observations

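Of 21 genes of clathrin-mediated endocytosis, the other main route of uptake at the plasma membrane, 12 rose and 4 fell in senescence with DMSO, and their median log2 fold change was 0.63, where 32.5% of all genes were called higher and 36% lower. SNX9, a membrane-bending sorting nexin, rose by 1.89 ± 0.11 (SE, adjusted p = 2.36e-12, edgeR), and EPN2, an epsin adaptor, rose by 1.01 ± 0.09 (adjusted p = 2.96e-09). With IMP1088 in senescent cells 4 rose and 7 fell, with a median of −0.12, and with DDD86481 2 rose and 7 fell, with a median of −0.16. Among all genes, 20.6% passed as higher and 23.9% as lower for IMP1088, against 20.1% and 23.1% for DDD86481. EPN2 changed by −0.83 ± 0.09 (adjusted p = 3.10e-07) with IMP1088 and SNX9 by 0.75 ± 0.10 (adjusted p = 6.33e-06). In control cells 4 rose and 3 fell with IMP1088, and 3 rose and 3 fell with DDD86481, each with a median of −0.08, where 16.3% and 17.8% of all genes were called higher and 17.4% and 18.7% lower. CLTB, a clathrin light chain, changed there by −0.65 ± 0.12 (adjusted p = 0.000283) with IMP1088 and AP2M1, an adaptor subunit, by −0.39 ± 0.08 (adjusted p = 0.000638). The control DMSO libraries held 93.35, 105.6 and 143.3 CPM of CLTB, with replicate 3 the highest, against 71.19 to 74.17 CPM with IMP1088. The other 14 and 15 genes did not pass.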
